A study of Mus musculus with 2 samples.

Results

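The genes described here encode 5 subunits of the phagocyte NADPH oxidase, namely Cybb (ENSMUSG00000015340), Cyba (ENSMUSG00000006519), Ncf1 (ENSMUSG00000015950), Ncf4 (ENSMUSG00000071715) and Rac2 (ENSMUSG00000033220), taken by name from the 32285 genes listed in both libraries. All 5 were detected in both libraries. The cells were GR1+ myeloid cells, isolated with magnetic beads from 4T1 mammary tumors grown in BALB/c mice of 6 to 8 weeks of age, and profiled in 1 droplet library (10x Genomics) for each tumor type. GR1 is a surface epitope shared by Ly6G and Ly6C, so the isolation collects neutrophils and monocytic cells together. The tumors arose from the parental line 4T1P, which does not respond to anti-PD1, or from 4T1M, a mutagenized clone of that line which does, and no treatment of the profiled mice is stated in the labels. 4T1M is a clone, so a difference between the tumors cannot be told apart from a property of that clone, and each library pooled the cells of several mice (5 per sample according to the labels, while the sources differ on that number).

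The NADPH oxidase moves electrons from NADPH across the membrane to oxygen and so produces superoxide, the first product of the respiratory burst with which phagocytes kill microbes, and which in tumors is known as a product of immunosuppressive myeloid cells. Cybb (gp91phox) carries the flavin and heme groups through which the electrons pass, and Cyba (p22phox) holds it stable in the membrane. In resting cells the organizer Ncf1 (p47phox) and the lipid-binding Ncf4 (p40phox) wait in the cytosol and the GTPase Rac2 is held there by the inhibitor Arhgdib; on stimulation all of them join the membrane pair. Loss of the membrane pair or of a cytosolic phox subunit causes chronic granulomatous disease, in which phagocytes take up microbes but fail to kill them.

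Barcodes were retained if they had between 500 and 5000 genes and no more than 10% of their UMIs (unique molecular identifiers, each counting 1 captured transcript) from mitochondrial genes, which left 1726 of 2947 barcodes in 4T1P (12948585 UMIs) and 3461 of 5004 in 4T1M (19302483 UMIs). The libraries shared 5 barcodes, 3 of them among the retained cells. Neutrophils were cells with at least 1.5% of their UMIs from S100a8 and S100a9 and under 0.5% from C1qa, C1qb, C1qc and Apoe (612 cells in 4T1P, 1686 in 4T1M). Macrophages were cells below 1.5% for S100a8 and S100a9 and with at least 0.3% from C1qa, C1qb, C1qc, Apoe, Csf1r, Cd68 and Fn1 (798 and 976). Among 8 neutrophil markers that the limits did not use, such as Csf3r and Retnlg, the summed level was 16876 and 13880 CPM (counts scaled to 1000000 UMIs of the class) in neutrophils and 229 and 333 CPM in macrophages. Of 8 macrophage markers that the limits did not use, 6 were at least 1.5-fold higher in macrophages in both libraries, and Cd14 and C5ar1 were at least 1.5-fold higher in neutrophils. The count of 6 lay near the share of all genes higher in macrophages to that extent (61.5% in 4T1P, 58.3% in 4T1M). The median log2 ratio of the 8 markers, neutrophils over macrophages, was -4.91 and -4.27. The summed level of the 8 markers was 3597 and 3553 CPM in neutrophils against 5295 and 4590 CPM in macrophages, so the sum separated the classes poorly. C1qa, C1qb, C1qc and Apoe, although limited by the rule, still summed to 372 and 415 CPM in neutrophils against 14726 and 15697 CPM in macrophages. T/NK cells (56 and 61) served as a background. B cells (25 and 20) are given beside them and not as a background, since they held Cybb at 408 and 376 CPM. The unassigned remainder (235 and 718) carried markers of both myeloid classes and is no such background. Its summed level was 2492 and 3465 CPM for the neutrophil markers and 2762 and 3130 CPM for the macrophage markers. Each tumor type had 1 library, so no test was run and no p-value is given. All intervals are 95% intervals of the counts (exact Poisson for levels, exact binomial for shares and exact conditional for ratios), and they cover counting error only. Where a count of 0 is said to allow a value, the limit is instead 3 UMIs or 3 cells over the total of the class. UMI counts are not scaled by transcript length, so levels are compared between cells for the same gene and never between genes.

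In the GRCm38 assembly the genes lie at chrX:9435252-9487771 (Cybb, minus strand), chr8:122424776-122432930 (Cyba, minus strand), chr5:134220053-134229625 (Ncf1, minus strand), chr15:78244801-78262580 (Ncf4, plus strand) and chr15:78559167-78572783 (Rac2, minus strand), each annotated as protein coding in GENCODE M21. The 250 bases before the RefSeq start of the membrane pair and of Ncf1 are shown because they belong to the gene with the largest differences in the data, to its membrane partner and to the organizer, with the interferon-regulatory-factor type repeat (GAAA, any 2 bases, GAAA, in either orientation) and the CCAAT box in capitals. The sequences are from RefSeq GRCm38.p6, read 5′ to 3′ along the gene, and the Cybb window at chrX:9469325-9469574 lies inside the longer span that GENCODE gives this gene. The Cyba window is chr8:122432941-122433190 and the Ncf1 window chr5:134229626-134229875, all on the minus strand.
Cybb: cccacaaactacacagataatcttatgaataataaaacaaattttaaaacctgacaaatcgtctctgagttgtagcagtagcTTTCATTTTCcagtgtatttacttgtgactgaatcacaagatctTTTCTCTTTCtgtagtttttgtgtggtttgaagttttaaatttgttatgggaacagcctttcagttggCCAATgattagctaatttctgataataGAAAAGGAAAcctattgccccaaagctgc
Cyba: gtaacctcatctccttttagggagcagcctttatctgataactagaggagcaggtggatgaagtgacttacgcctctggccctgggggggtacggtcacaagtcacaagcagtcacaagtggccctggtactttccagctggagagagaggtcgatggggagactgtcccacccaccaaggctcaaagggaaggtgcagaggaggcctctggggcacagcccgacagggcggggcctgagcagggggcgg
Ncf1: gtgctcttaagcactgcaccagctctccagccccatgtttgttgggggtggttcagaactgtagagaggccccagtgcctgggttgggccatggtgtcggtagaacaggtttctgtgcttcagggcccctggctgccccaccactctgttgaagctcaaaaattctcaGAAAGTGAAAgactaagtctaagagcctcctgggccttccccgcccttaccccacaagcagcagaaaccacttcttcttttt
The Cybb window held 3 such repeats, with first bases 29, 124 and 168 bases before the start, and 1 CCAAT box at 56 bases. The Ncf1 window held 1 repeat at 82 bases and no CCAAT box, and the Cyba window held neither. The repeat was present in 978 of 32851 mouse promoter windows of the same kind (2.98%) and CCAAT in 11120 (33.8%), with both strands searched and no overlap between the 2 motifs in the windows shown. A match to these letters is a description of the sequence and not evidence of a bound factor.

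Cybb was found at a higher level in macrophages than in neutrophils under every scaling tried, Cyba was higher in macrophages or in neutrophils according to the scaling, and Ncf1, Ncf4 and Rac2 were higher in neutrophils under every scaling tried. Cybb stood at 320.4 CPM in 4T1P neutrophils (interval 299 to 343) and 422 CPM in 4T1M neutrophils (406 to 438). In macrophages it stood at 1251 CPM (1228 to 1275) and 1564 CPM (1538 to 1589), which is 3.91-fold and 3.71-fold higher. In T/NK cells, the background class, it stood at 5.33 CPM (2 UMIs) and 26.5 CPM (9 UMIs). The intervals of neutrophils, macrophages and T/NK cells were apart in both libraries, with macrophages the highest and T/NK cells the lowest. Cyba, the partner of Cybb in the membrane, showed a smaller difference, at 814 and 785 CPM in neutrophils and 1099 and 1172 CPM in macrophages (log2 ratio of neutrophils over macrophages -0.43 in 4T1P and -0.58 in 4T1M). This direction depended on the scaling. With edgeR's TMM factors the log2 ratio of Cyba became 0.25 in 4T1P and 0.16 in 4T1M, and with DESeq2 size factors 0.37 and 0.25, so its order between these classes is not settled. Cybb stayed lower in neutrophils with TMM factors, at -1.28 and -1.15.

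Ncf1, which is phosphorylated to start assembly, stood at 359 and 468 CPM in neutrophils and at 204 and 207 CPM in macrophages, a 1.76-fold and 2.27-fold higher level in neutrophils. No Ncf1 UMI was found in 4T1P T/NK cells, where a count of 0 allows up to 7.99 CPM (9.83 CPM by the exact interval). In 4T1M T/NK cells 8 UMIs (23.6 CPM) were found. Ncf4, whose product binds phosphatidylinositol 3-phosphate on phagosomes, stood at 507 and 466 CPM in neutrophils and at 268 and 289 CPM in macrophages (1.89-fold and 1.61-fold). Of the 3 genes, Rac2 was alone in having a T/NK level above that of neutrophils other than the granule-rich cells described later. It stood at 628 and 540.4 CPM in neutrophils, 243 and 234 CPM in macrophages (2.59-fold and 2.31-fold) and 647 and 619 CPM in T/NK cells. Rac2 is a GTPase of the whole hematopoietic lineage and is not restricted to phagocytes.

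All 5 genes had at least 100 UMIs over both sums in this comparison and in each of the following. Past a 1.5-fold difference, 3 of the 5 genes were higher in neutrophils in 4T1P, where 15.4% of the 7405 genes with at least 100 UMIs were higher to that extent, and the same count of 3 was found in 4T1M, where the share was 16.8%. Cybb was lower to that extent in both libraries, which also held for 61.5% of genes in 4T1P and 58.3% in 4T1M. The median log2 ratio over all these genes was -1.09 and -0.92, so that relative to that median the log2 ratio of Cybb (-1.97 and -1.89) lay lower by less than it does relative to 0. The share of past-fold genes that were higher in neutrophils was 20.1% in 4T1P and 22.4% in 4T1M, and rose to 38.1% and 43.9% with TMM factors and to 41.7% and 46.7% with DESeq2 size factors. The median number of UMIs per cell differed as well, at 3054.5 and 2957.5 in neutrophils and 9727 and 9213.5 in macrophages, and its part in these ratios was not tested.

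**Figure D1:**
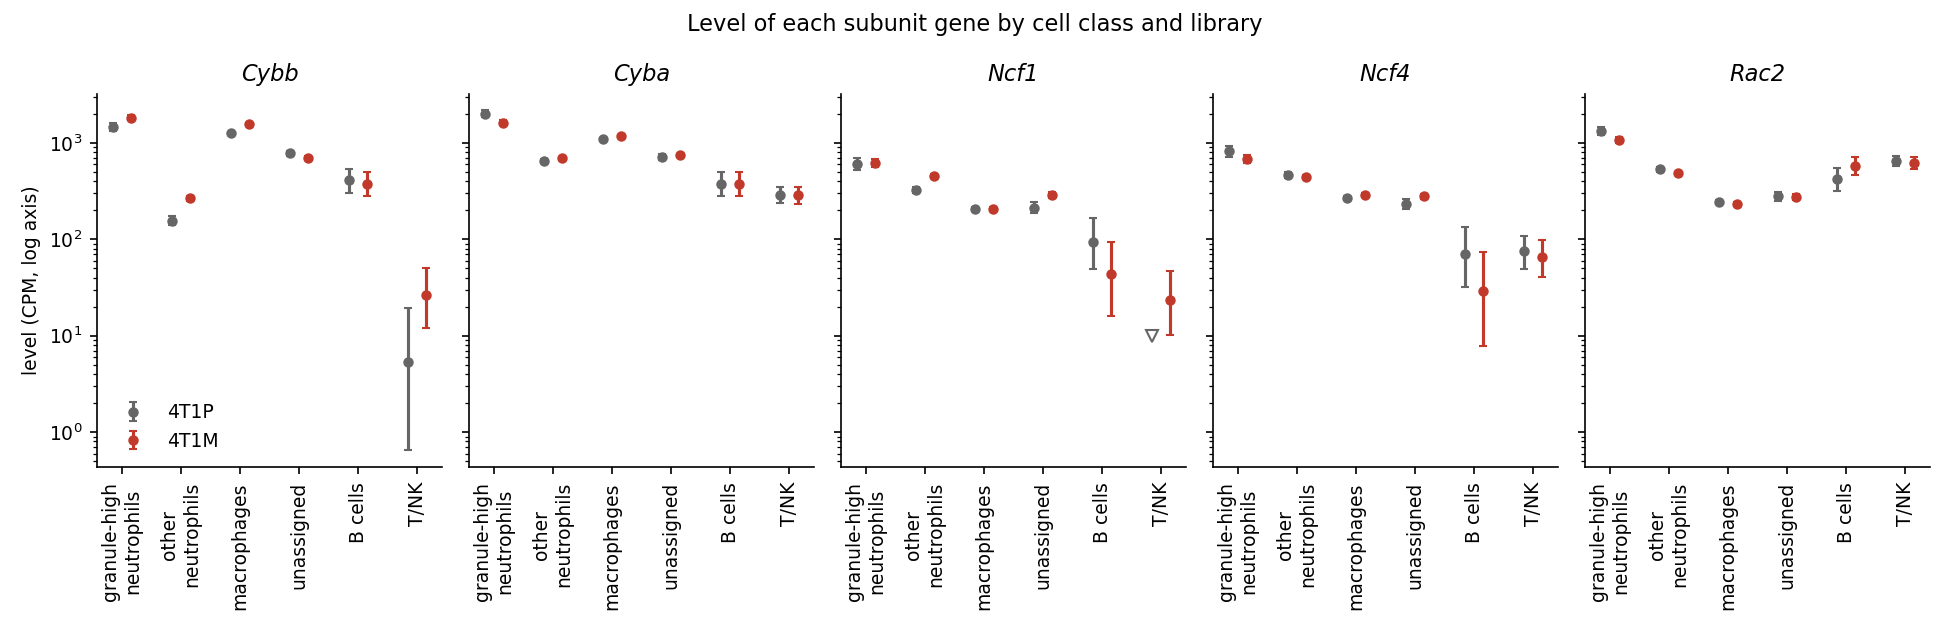
Level of each subunit gene (CPM, log axis; 1 panel per gene) in 6 cell classes of 4T1P (grey) and 4T1M (red), with exact 95% Poisson intervals as bars and an open triangle at the upper bound where no UMI was counted. Cybb sits higher in macrophages than in other neutrophils (1251 against 155 CPM in 4T1P), whereas Ncf1, Ncf4 and Rac2 sit lower there.

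The order of the levels over all classes was read with the neutrophils divided by Camp, Ngp and Ltf, genes of the secondary and tertiary granule proteins that neutrophils make while they mature. Cells with at least 1% of their UMIs from the 3 genes (granule-high) numbered 18 of 612 in 4T1P and 46 of 1686 in 4T1M. Cybb was highest in granule-high neutrophils (1466 and 1819 CPM), followed by macrophages, unassigned cells (777 and 695 CPM), B cells (408 and 376 CPM), other neutrophils (155 and 265 CPM) and T/NK cells, and the intervals of neighbors in that order did not overlap in either library. Those intervals count UMIs and leave out the spread between cells, and the highest class rests on 18 and 46 cells. Neither the intervals of Cyba in unassigned cells and other neutrophils (717 and 643 CPM in 4T1P, 741 and 693 CPM in 4T1M) nor those of Cyba in B and T/NK cells (377 and 290.4 CPM, 376 and 286 CPM) were apart. Ncf1 and Ncf4 were highest in granule-high neutrophils (601 and 613 CPM for Ncf1, 817 and 681 CPM for Ncf4), next highest in other neutrophils (324 and 452 CPM, 463 and 442 CPM), and lowest in B and T/NK cells. Rac2 was highest in granule-high neutrophils (1317 and 1066 CPM) and lowest in macrophages, whose interval overlapped with that of unassigned cells in 4T1P, and other neutrophils (529 and 481 CPM) overlapped with B cells (424 and 578 CPM).

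The share of cells with at least 1 UMI was compared at an equal depth of 1000 randomly drawn UMIs per cell. This left out 26 and 37 shallower macrophages, 0 and 4 neutrophils and 0 and 1 T/NK cells. Cybb was then found in 9.15% of 4T1P neutrophils (56 of 612, interval 6.99% to 11.7%) and 15.0% of 4T1M neutrophils (252 of 1682, 13.3% to 16.8%). In macrophages the shares were 48.1% and 60.2%, and in T/NK cells 1.79% and 5.0%. The neutrophil share lay above that of T/NK cells, whose interval (0.0452% to 9.55% in 4T1P, 1.04% to 13.9% in 4T1M) overlapped with it, and far under that of macrophages. Without thinning the shares were 20.1% and 27.4% in neutrophils, 74.6% and 80.8% in macrophages and 3.57% and 9.84% in T/NK cells, at median depths of 6211 and 5166 UMIs in the T/NK cells. Ncf1 was found in 23.5% and 33.1% of thinned neutrophils, 16.3% and 17.7% of macrophages and 0 of 56 and 0 of 60 T/NK cells, which allows shares of cells with a UMI at this depth of up to 5.36% and 5.0%. Without thinning it was found in 0 of 56 and 4 of 61 T/NK cells (6.56% in 4T1M). None of the 5 genes was found in 22.5% and 17.9% of thinned neutrophils and in 8.68% and 7.67% of thinned macrophages.

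The granule-high neutrophils held the highest level of every subunit gene in both libraries. In the 18 granule-high cells of 4T1P, Cybb ranged from 1 to 91 UMIs per cell with a median of 23, and in the 46 cells of 4T1M from 1 to 106 with a median of 17.5. In other neutrophils the median was 0, with a highest value of 27 in 4T1P and 53 in 4T1M, and Cybb was present in 105 of 594 and 416 of 1640 cells. The ranges overlapped, and every granule-high cell held a Cybb UMI whereas most other neutrophils held none. Cyba ranged from 5 to 73 UMIs (median 30.5) in granule-high cells of 4T1P and from 3 to 64 (median 20.5) in those of 4T1M, against medians of 1 and 2 in other neutrophils. Rac2 had medians of 22 and 15 in granule-high cells and of 1 and 1 in the others. The granule-high cells of both libraries held a UMI of all 5 genes, apart from 1 cell of 4T1M without Ncf1. These counts per cell were not thinned, and the granule-high cells were deeper. At 1000 UMIs per cell, Cybb was found in 61.1% and 71.7% of granule-high cells against 7.58% and 13.4% of other neutrophils. Rac2 was found in 44.4% against 32.8% in 4T1P, with overlapping intervals, and in 80.4% against 31.3% in 4T1M. At that depth the intervals also overlapped for Ncf4 in 4T1P and Ncf1 in 4T1M. Between granule-high cells and macrophages, the intervals of the Cybb share overlapped at that depth in both libraries. They were 35.7% to 82.7% and 44.5% to 51.6% in 4T1P. In 4T1M they were 56.5% to 84.0% and 57.0% to 63.3%.

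**Figure D2:**
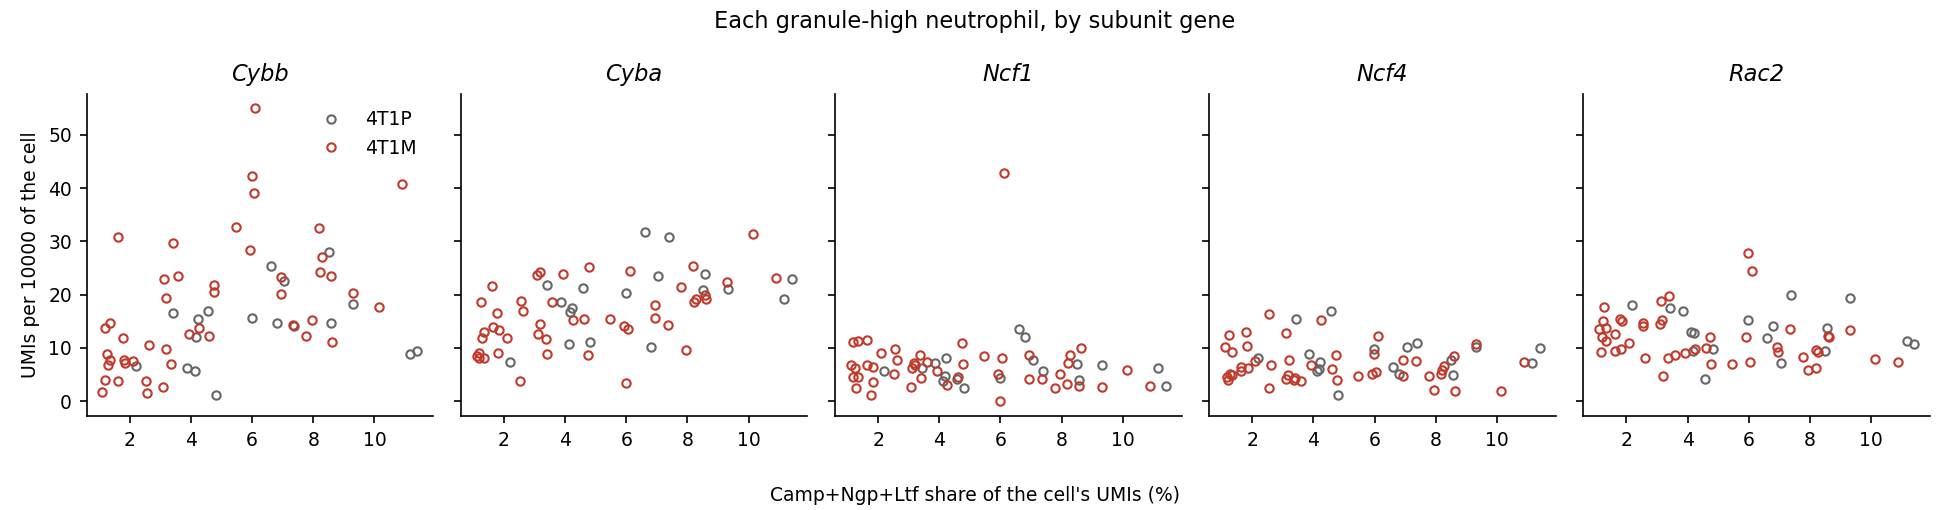
Each point is 1 granule-high neutrophil of 4T1P (grey, 18 cells) or 4T1M (red, 46 cells), placed by the share of its UMIs from Camp, Ngp and Ltf (horizontal, %) and by its UMIs of the subunit gene per 10000 UMIs (vertical; 1 panel per gene). Cybb spreads the most, from 1.23 to 27.9 per 10000 in 4T1P and from 1.64 to 55.0 in 4T1M, and 1 cell of 4T1M stands alone for Ncf1 at 42.8.

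As ratios of the summed cells, Cybb was 9.46-fold higher in granule-high than in other neutrophils of 4T1P (1466 against 155 CPM, log2 3.24, interval 3.04 to 3.45) and 6.87-fold higher in 4T1M (1819 against 265 CPM, log2 2.78, 2.67 to 2.89). Cyba was 3.11-fold and 2.32-fold higher, Rac2 2.49-fold and 2.22-fold, Ncf4 1.77-fold and 1.54-fold, and Ncf1 1.86-fold and 1.36-fold. The membrane gene Cybb thus had the largest ratio of the set in both libraries and Ncf1 and Ncf4 the smallest. Past 1.5-fold, 5 of the 5 genes were higher in 4T1P, against 12.4% of the 2365 genes with enough UMIs, and 4 of 5 in 4T1M (all but Ncf1), against 13.2% of 4268 genes. None was lower, while 55.4% and 44.8% of all genes were. The median log2 ratio over all genes was -0.77 and -0.46, and the share of past-fold genes that were higher was 18.3% and 22.7%, or 32.8% and 39.4% with totals that left out the 20 most abundant genes.

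A small minority of the neutrophils held a large part of the Cybb UMIs of the class. Granule-high cells made up 2.94% of 4T1P and 2.73% of 4T1M neutrophils and held 12.6% and 10.1% of the UMIs of the class. They held 57.7% of the Cybb UMIs in 4T1P (463 of 802) and 43.5% in 4T1M (1208 of 2775). The same cells held 31.0% and 20.6% of the Cyba UMIs, 26.4% and 19.9% of the Rac2 UMIs, 20.3% and 14.7% of the Ncf4 UMIs and 21.1% and 13.2% of the Ncf1 UMIs.

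The granule-high cells were deeper than the others (median 16632 and 12576.5 UMIs against 2995.5 and 2920). Among cells with at least 8000 UMIs, a limit set after the values were seen, Cybb stood at 1464 CPM in 17 granule-high and 274 CPM in 35 other neutrophils of 4T1P, and at 1862 CPM in 39 and 640.5 CPM in 83 of 4T1M. At the same depth limit Cyba stood at 1997 against 864 CPM and 1617 against 887 CPM, and Rac2 at 1324 against 841 CPM and 1048 against 561 CPM. Ncf1 stood at 603 against 323 CPM and 592 against 420.2 CPM, and Ncf4 at 810.1 against 492 CPM and 689.9 against 442 CPM. All 5 genes kept their direction among cells above that limit. The limit did not make the depths equal. Above it the median was 17599 and 13141 UMIs in granule-high cells against 9718 and 10560 in the others. The part of depth in these ratios was not tested. The log2 ratio of Cybb was smaller there (2.42 and 1.54, against 3.24 and 2.78 over all depths), as were those of Cyba (1.21 and 0.87) and Rac2 (0.65 and 0.90), while Ncf1 (0.90 and 0.50) and Ncf4 (0.72 and 0.64) moved little, so that Rac2 rather than Ncf1 or Ncf4 had the smallest ratio in 4T1P. The summed level of the 8 macrophage markers was 1757 and 2455 CPM in granule-high cells against 3863 and 3676 CPM in the others, and Cd14 and C5ar1, the pair that neutrophils express more than macrophages, made up most of it. Of the other markers, Lgmn stood at 9.50 against 64.9 CPM in 4T1P and 37.7 against 88.6 CPM in 4T1M. Adgre1, Mrc1 and Ms4a7 were at 0 in the granule-high cells of 4T1P. The sum of C1qa, C1qb, C1qc and Apoe was also lower (104 and 149 CPM against 411 and 445 CPM). T/NK markers were higher in granule-high cells (114 and 97.9 CPM against 17.8 and 16.2 CPM) with 6 of the 8 genes at 0, among them Cd3e and Trac, so that Cd3d and Nkg7 made up the sum.

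Along the share of UMIs from Camp, Ngp and Ltf, the members differed in where their levels changed. Neutrophils were put in 5 bins, at 0, above 0 to under 0.1%, from 0.1% to under 1%, from 1% to under 5%, and at 5% or more (489, 82, 23, 8 and 10 cells in 4T1P, and 1347, 245, 48, 28 and 18 in 4T1M). Cybb in 4T1P stood at 165, 89.9, 199, 938 and 1692 CPM over these bins, and in 4T1M at 238, 321, 425, 1210 and 2478 CPM. Rac2 in 4T1P stood at 415, 677, 1147, 1349 and 1303 CPM, and in 4T1M at 431, 521, 1096, 1140 and 987 CPM. Rac2 had therefore reached over 1000 CPM in the middle bin, where Cybb was still near the level of cells without granule transcripts in 4T1P, and Cybb was highest in the top bin. In 4T1M, Cybb was already higher in the middle bin than in cells without granule transcripts (425 against 238 CPM), with intervals apart. Cyba was higher in each successive bin (569 to 2226 CPM in 4T1P, 654 to 1764 CPM in 4T1M). Ncf1 was near 320 CPM in the lower 3 bins of 4T1P and 629 CPM in the top bin, and in 4T1M it was 447 CPM in the lowest, 670.0 CPM in the fourth and 551 CPM in the top bin. Ncf4 stood at 426, 558, 573, 759 and 842 CPM in 4T1P. In 4T1M it stood at 431, 463, 510, 757 and 598 CPM, lower in the top bin than in the fourth. The upper 2 bins of 4T1P hold 8 and 10 cells and that of 4T1M with most granule transcripts 18, so single cells weigh heavily there. Median UMIs per cell rose along the bins as well, at 2859, 3686.5, 7647, 11735 and 20324 in 4T1P. In 4T1M they were 2725, 4282, 5520, 11576 and 18724. The part of depth in the levels over the bins was not tested.

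**Figure D3:**
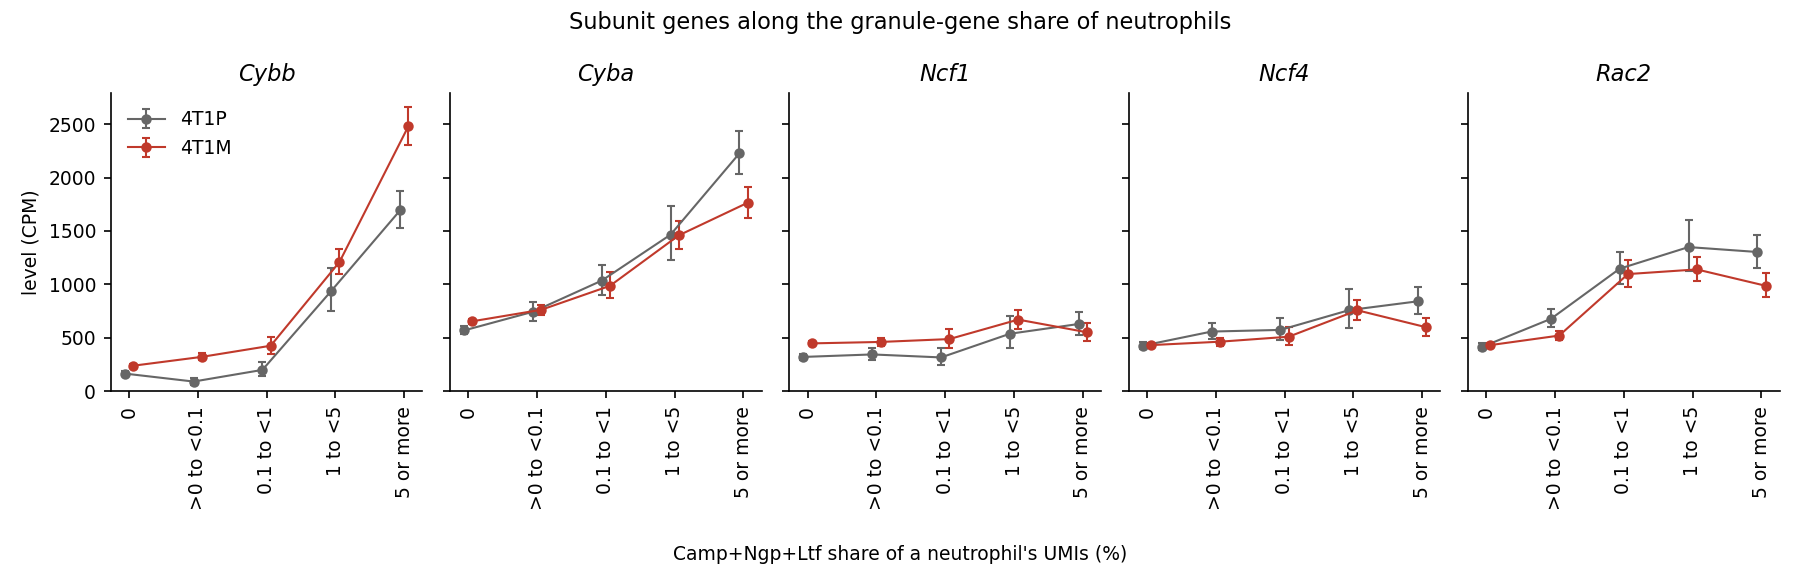
Level of each subunit gene (CPM; 1 panel per gene) in neutrophils binned by the share of their UMIs from Camp, Ngp and Ltf (%), in 4T1P (grey) and 4T1M (red), with exact 95% Poisson intervals as bars. Cybb is highest in the bin at 5% or more (1692 and 2478 CPM), and Rac2 exceeds 1000 CPM in 4T1P from the bin at 0.1% to under 1% on. The median depth of the cells is also higher in each successive bin.

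The limits that chose the cells gave the following values near them, as a description. Among retained cells under the C1q and Apoe limit, the 34 cells of 4T1P with 1% to under 1.5% of UMIs from S100a8 and S100a9 had 571 CPM of Cybb and the 31 neutrophils with 1.5% to under 2% had 387 CPM, and in 4T1M the values were 397 CPM (134 cells) and 633 CPM (106 cells). Just under the granule limit, at 0.5% to under 1%, Cybb stood at 205 CPM in 6 cells of 4T1P and 624 CPM in 4 cells of 4T1M, and at 1% to under 1.5% at 807 CPM in 7 cells of 4T1M, with no such cell in 4T1P.

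The partners of the 5 genes went both ways between granule-high and other neutrophils. Rac1, the relative of Rac2 that serves the oxidase in macrophages, was lower in granule-high cells (275 against 443 CPM and 267 against 436 CPM). Arhgdib, which keeps Rac proteins inactive in the cytosol, was the partner that stood out, at 2764 against 346 CPM in 4T1P and 2461 against 317 CPM in 4T1M (log2 3.0 and 2.96). Cybc1, a chaperone of the membrane pair, was sparse at 9.50 and 13.6 CPM in granule-high cells, and Hvcn1, the proton channel that balances the charge, rested on 1 and 10 UMIs. Of the 8 partner genes listed, 4 in 4T1P and 5 in 4T1M had enough UMIs. Past 1.5-fold, 1 and 2 of them were higher, beside 12.4% and 13.2% of all genes. Lower to that extent were 2 and 1, beside 55.4% and 44.8% of all genes, and the count in 4T1P lay near that share. The medians were -0.05 and 0.24, beside -0.77 and -0.46 over all genes.

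The list of NADPH supply also held genes that do not produce NADPH themselves, such as Slc2a1. Of its measured genes, 6 of 9 in 4T1P and 6 of 10 in 4T1M were past 1.5-fold higher in granule-high cells, beside 12.4% and 13.2% of all genes. Past 1.5-fold lower were 2 and 1 (median log2 ratios of the list 1.18 and 1.32). G6pdx, the first enzyme of the pentose phosphate pathway, stood at 152 against 36.1 CPM and 170.2 against 24.8 CPM. Pgd, the second NADPH-producing step of that pathway, stood at 222 against 97.8 CPM and 297 against 103 CPM, and Tkt of its non-oxidative branch at 877 against 113 CPM and 741 against 113 CPM. Slc2a1, a glucose transporter, was lower in both libraries (66.5 against 504 CPM and 133 against 411 CPM). These enzymes were chosen for naming after their values were seen. Genes that act before the oxidase, such as receptors and kinases, went both ways, with 2 of 14 past 1.5-fold higher and 6 lower in 4T1P and 4 of 19 higher and 4 lower in 4T1M, beside 12.4% higher and 55.4% lower of all genes in 4T1P and 13.2% and 44.8% in 4T1M. The counts in 4T1P lay near those shares. Among them the integrin chain Itgb2 (log2 0.96 and 0.84) was higher, and the kinase Syk (-1.06 and -0.89) was lower.

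Most of the measured transcription factors that are known to act on these promoters had lower RNA levels in granule-high than in other neutrophils. Their part in the level of Cybb was not tested. Spi1, which drives Cybb in myeloid cells, stood at 405 against 378 CPM in granule-high and other neutrophils of 4T1P and at 354 against 345 CPM in 4T1M, with overlapping intervals. Irf1 was lower in granule-high cells (44.3 against 328 CPM and 110.0 against 330.3 CPM). Irf8 was at 0 UMIs in granule-high cells of 4T1P, where a count of 0 allows up to 9.50 CPM, and at 7.53 CPM in 4T1M, against 16 and 22.3 CPM in other neutrophils. Of the measured transcription factors, 8 of 10 were lower past 1.5-fold in 4T1P and 11 of 13 in 4T1M, beside the 55.4% and 44.8% of all genes, and Cebpe, a regulator of granule genes, was higher in 4T1M (113 against 4.39 CPM). In macrophages Irf8 stood at 262 and 268 CPM against 14 and 20.8 CPM in neutrophils, and Spi1 at 255 and 256 CPM against 382 and 346 CPM. The other catalytic genes Nox1, Nox3, Duox1 and Duox2 had no UMI in neutrophils or macrophages of either library, which in neutrophils allows up to 1.20 and 0.456 CPM, and Nox4 had 6 UMIs in 4T1P neutrophils (2.40 CPM).

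**Figure D4:**
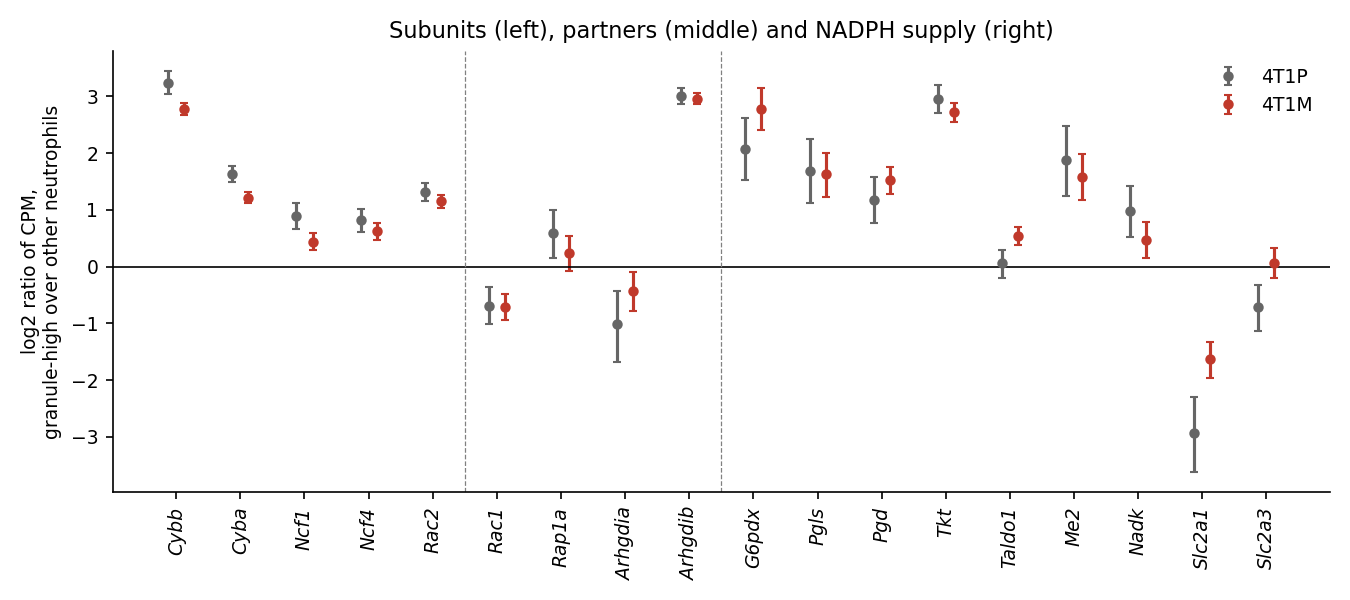
Log2 ratio of CPM of granule-high over other neutrophils (vertical) in 4T1P (grey) and 4T1M (red) for the subunit genes (left), their partners (middle) and the NADPH-supply genes (right) measured in both libraries, with exact 95% intervals as bars. Cybb (3.24 and 2.78) and Arhgdib (3.0 and 2.96) stand near the top, and Slc2a1 stands lowest in both libraries.

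Over all neutrophils and over all macrophages, the subunit genes differed little between the tumors, while Cybb differed more within the other neutrophils described next. In neutrophils Cybb was 1.32-fold higher in 4T1M (log2 0.40, interval 0.28 to 0.51) and Ncf1 1.30-fold higher (0.38, 0.28 to 0.49), while Rac2 (-0.22, -0.30 to -0.13), Ncf4 (-0.12, -0.22 to -0.03) and Cyba (-0.05, -0.13 to 0.02) were at or below the level of 4T1P. In macrophages Cybb was 1.25-fold higher in 4T1M (log2 0.32, 0.29 to 0.36), with 0.09 for Cyba, 0.02 for Ncf1, 0.11 for Ncf4 and -0.06 for Rac2. No gene of the 5 passed 1.5-fold in either class. The background in neutrophils was 7.77% higher and 1.72% lower of 4953 genes, and in macrophages 3.3% higher and 2.94% lower of 8571 genes. Most genes thus stayed under 1.5-fold, and the absence of a subunit gene past it lay near these shares. The summed level of the 5 genes was 2629 and 2682 CPM in neutrophils and 3065 and 3465 CPM in macrophages.

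Within the granule-high neutrophils the log2 ratios of 4T1M over 4T1P were 0.31 for Cybb, -0.32 for Cyba, 0.03 for Ncf1, -0.26 for Ncf4 and -0.30 for Rac2, with none past 1.5-fold, beside 18.9% of 924 genes higher and 1.73% lower. Within the other neutrophils Cybb was 1.71-fold higher in 4T1M (265 against 155 CPM, log2 0.77, interval 0.60 to 0.95), the only member of the 5 past 1.5-fold in that comparison, where 7.37% of 4709 genes were higher to that extent and 1.83% lower. The size of that difference depended on which cells were taken. In other neutrophils without a UMI of C1qa, C1qb, C1qc, Apoe, Csf1r, Fn1 or Ms4a7 (193 and 570 cells), a choice made after the values were seen, Cybb stood at 167 CPM in 4T1P and 196 CPM in 4T1M (log2 0.23) and no longer passed 1.5-fold, at median depths of 2769 and 2625.5 UMIs against 2995.5 and 2920 over all other neutrophils. In other neutrophils with at least 8000 UMIs (35 and 83 cells), the difference was larger, at 274 against 640.5 CPM (log2 1.22). Ncf1 passed 1.5-fold in the cells without those UMIs, at 307 against 471 CPM (log2 0.62), while Cyba (646 against 651 CPM), Ncf4 (464 against 464 CPM) and Rac2 (499.7 against 470.2 CPM) stayed close. The part of macrophage RNA, of depth and of the choice of cells in these values was not tested. Of the partners, 0 of 6 measured in neutrophils and 0 of 8 in macrophages passed 1.5-fold between the tumors, as did 0 of 11 and 0 of 12 genes of NADPH supply. Of all genes, 7.77% were higher and 1.72% lower to that extent in neutrophils, and 3.3% and 2.94% in macrophages. These counts of 0 lay near those shares.

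**Figure D5:**
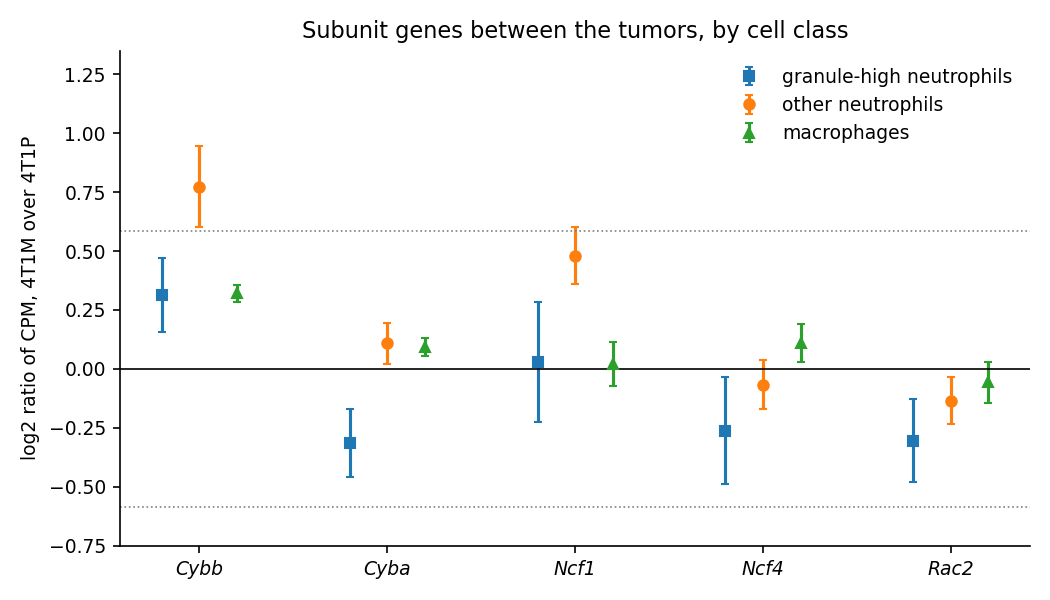
Log2 ratio of CPM of 4T1M over 4T1P (vertical) for each subunit gene in granule-high neutrophils, other neutrophils and macrophages, with exact 95% intervals as bars and dotted lines at 1.5-fold in either direction. Cybb in other neutrophils (0.77) is the only point past a dotted line.

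Interferon-stimulated genes (ISGs) separate neutrophils in these tumors, so the subunits were compared between neutrophils with at least 1% of their UMIs from 19 listed ISGs (57 cells in 4T1P, 211 in 4T1M) and the rest. Cybb was lower in ISG-high cells (169 against 332 CPM and 222 against 444.5 CPM, log2 -0.97 and -1.0), and so was Rac2 in 4T1P (409 against 646 CPM, log2 -0.66). Those 2 genes in 4T1P and Cybb in 4T1M were past 1.5-fold, beside 21.3% and 20.4% of all genes lower and 12.9% and 6.94% higher. No granule-high cell was ISG-high. With the granule-high cells left out, the log2 ratio of Cybb was 0.14 in 4T1P (169 against 154 CPM, interval -0.44 to 0.67) and -0.28 in 4T1M (222 against 270.3 CPM), and none of the 5 genes passed 1.5-fold, beside 9.22% higher and 19.7% lower of all genes in 4T1P and 5.82% and 18.9% in 4T1M. The lower Cybb of ISG-high cells was therefore not detectable in 4T1P and smaller in 4T1M (interval -0.53 to -0.04) once granule-high cells were left out. Ncf1 was at 431 against 314 CPM (log2 0.46) and 479 against 449 CPM (log2 0.09) in that comparison.

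Macrophages were divided by C1qa, C1qb and C1qc at 0.3% of UMIs, as complement C1q marks mature tissue macrophages (570 of 798 cells in 4T1P and 664 of 976 in 4T1M above the limit). The membrane genes differed little between the groups and with no common direction. The log2 ratio of Cybb was -0.13 in 4T1P (interval -0.19 to -0.07) and 0.05 in 4T1M (0.002 to 0.11), and that of Cyba -0.01 (-0.08 to 0.05) and -0.12 (-0.18 to -0.06). Rac2 was higher in C1q-high macrophages (268 against 183 CPM and 258 against 173 CPM, log2 0.55 and 0.58), as were Ncf1 (0.45 and 0.32) and Ncf4 (0.36 and 0.23), with intervals above 0 in both libraries. None of the 5 passed 1.5-fold, beside 11.8% higher and 6.87% lower of all genes in 4T1P and 13.4% and 8.11% in 4T1M.

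The genes whose levels followed each member most closely were found over 11 points (the classes of at least 20 cells in each library). They were taken from 2876 genes of at least 50 CPM on average, by Pearson's r of log2(CPM + 10), and the points share libraries and depth. The granule-high neutrophils of 4T1P (18 cells) fell under that limit and gave no point. The genes named have the highest r of all those compared, so their r is high by selection. Cybb was followed by Rnf130 (0.89), Plbd1 (0.88) and Lyn (0.87), and Cyba by Plbd1 (0.98), Anxa3 (0.97) and Pgd (0.97). Ncf1 was followed by Gsn (0.97), Spi1 (0.97) and Plaur (0.96), Ncf4 by Apobr (0.98), Pygl (0.98) and Mgst1 (0.97), and Rac2 by Ccnd3 (0.95), Cd52 (0.95) and Stk38 (0.91). Among the members, Cybb and Cyba had an r of 0.84, Cybb and Ncf4 an r of 0.51, and Rac2 had values from -0.10 to -0.41 with the others. The lists near each member were different, apart from Plbd1, which stood near both membrane subunits.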

How the data were processed

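GR1+ cells of 4T1P and 4T1M tumors were profiled in 1 droplet library each. The authors aligned and counted the reads, and the deposited values are raw UMI counts per gene and barcode without normalization; the submitters' processing notes name Cell Ranger 4.0.0 and mm10. No doublets were called, and whether any were removed before deposit is not given in the sources used here. Class limits leave out cells with both S100a8/S100a9 and C1q/Apoe transcripts in quantity, and an alternative left out the 5% of cells with most UMIs. T/NK and B cells had at least 0.3% of UMIs from their markers.

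Counts were summed per class and library, scaled to CPM by the total of the class and compared as ratios in Python 3.11.15 (numpy 2.4.6, scipy 1.17.1). Genes with at least 100 UMIs over both sums formed the background, and past 1.5-fold is a call by size, not a test. edgeR 4.0.16 and DESeq2 1.42.0 in R 4.3.3 gave scaling factors only. The ratios and intervals were tested on counts simulated with Poisson error only, so their coverage under differences between cells or mice was not tested. The members, gene lists and limits were chosen with earlier results of these data known. Beside the members, the genes named were partners of the oxidase, up to 6 list genes per comparison with the largest change past 1.5-fold, and the 3 genes nearest to each member; other genes named from the lists were chosen after their values were seen. Clec7a and Mx1 were not analysed here.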

Additional observations from a re-analysis of the deposited data

Results flagged for a closer look

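Some values had opposite signs in groups compared the same way, or came from barcodes that no comparison used, and none of these differences was tested. Cybb had a log2 ratio of C1q-high over other macrophages of -0.13 in 4T1P and 0.055 in 4T1M. Cyba had a log2 ratio of 4T1M over 4T1P of -0.32 in granule-high and 0.11 in other neutrophils. Ncf4 had a log2 ratio of 4T1M over 4T1P of -0.12 in neutrophils and 0.11 in macrophages, and the latter became -0.02 with a mitochondrial limit of 5%.

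Barcodes left out by the cell limits also held subunit transcripts. The summed level of the 5 genes was 2071 CPM in 4T1P and 2287 CPM in 4T1M for barcodes with over 5000 genes, 2061 and 2065 CPM for those with over 10% mitochondrial UMIs, and 625 and 1245 CPM for those with under 500 genes. In retained T/NK cells, which served as a background, the sum was 1018 and 1021 CPM, most of it Rac2.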

How the results depend on the processing

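No paired analysis was possible because each tumor type had 1 library and the results come from no test. Over 8 alternatives for each of 5 genes, the sign of the 4T1M over 4T1P log2 ratio was kept in 35 of 40 values in neutrophils and 36 of 40 in macrophages, over 11 alternatives in 54 of 55 values in other neutrophils, and between neutrophils and macrophages in 43 of 45 values in each library. Every one of the 60 values in each library kept its sign in the granule comparison, where Cybb ranged from 2.42 to 3.64 in 4T1P and from 1.54 to 3.16 in 4T1M, the lowest values being those of cells with at least 8000 UMIs, and Ncf1 from 0.43 to 1.85 in 4T1P, the upper value resting on 3 granule-high cells without a macrophage-gene UMI. Without the 5% of cells with most UMIs, 1 gene (Cybb, log2 0.71) was past 1.5-fold higher in 4T1M neutrophils. That setting kept only 3 granule-high cells in 4T1P and 13 in 4T1M, also in the granule comparison. Under some settings 2 genes, Cyba beside Cybb, were past 1.5-fold lower in neutrophils than in macrophages. In both libraries this held without the 5% of cells with most UMIs, with the mean of per-cell shares and without neutrophils with a macrophage-gene UMI. In 4T1M it also held with the mitochondrial limit of 5% and with stricter class limits. Without granule-high neutrophils, 0 genes were past 1.5-fold lower in ISG-high cells of either library, and the log2 ratio of Cybb in 4T1P reversed to 0.14. The share of genes past 1.5-fold in either direction between the tumors was 9.49% in neutrophils and 6.24% in macrophages, and 26.5% and 15.8% with at least 10 UMIs, 6.19% and 3.71% with at least 1000 UMIs, and 49.0% and 35.5% with no filter. DESeq2 size factors raised the share of past-fold macrophage genes that were higher in 4T1M from 52.9% to 64.2%. Between neutrophils and macrophages, TMM and DESeq2 factors moved the median over all genes to -0.41 and -0.29 in 4T1P and to -0.18 and -0.09 in 4T1M. Shares of cells with a UMI depended on the depth, with 38 of 40 values moving beyond their interval at 2000 UMIs and 40 of 40 without thinning. With 18 and 46 granule-high cells and no replicate library, the spread between animals is unknown.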

Other observations

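Genes outside the oxidase that remove its products were counted between granule-high and other neutrophils. Of the measured antioxidant genes, 3 of 16 were higher past 1.5-fold and 7 lower in 4T1P, and 3 of 19 were higher and 8 lower in 4T1M, which lay near the 12.4% higher and 55.4% lower of all genes in 4T1P and the 13.2% and 44.8% in 4T1M. Gpx1, a glutathione peroxidase, stood at 1206 against 439 CPM and 1044 against 454 CPM, and Mgst1, a microsomal glutathione transferase, at 506 against 198 CPM and 499 against 225 CPM. Gsr, which regenerates glutathione with NADPH, stood at 152 against 89.2 CPM and 152 against 87.9 CPM. Hmox1, heme oxygenase, was lower (82.3 against 632 CPM and 182 against 710.1 CPM), as was the cystine transporter Slc7a11 (152 against 624 CPM and 294 against 892 CPM). These antioxidant genes were chosen for naming after their values were seen.

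Nos2, the inducible nitric oxide synthase whose product reacts with superoxide, stood at 19.0 against 193 CPM in 4T1P and 61.8 against 188 CPM in 4T1M, and Padi4, which acts with oxidants in the release of chromatin, at 139 against 28.8 CPM and 73.8 against 12.2 CPM. Mpo, whose enzyme turns hydrogen peroxide into hypochlorous acid, had no UMI in the neutrophils of 4T1P and 1 and 2 UMIs in granule-high and other neutrophils of 4T1M. Of the measured ISGs, 9 of 11 were lower past 1.5-fold in granule-high cells in 4T1P and 17 of 18 in 4T1M, beside 55.4% and 44.8% of all genes, as Rsad2 at 12.7 against 439 CPM and 84.3 against 808 CPM.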
